A study of Mus musculus with 18 samples.

Results

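The results concern chromatin of newborn mouse cortex recovered with a TBR1 antibody, as given by 2 peak lists. The authors called these lists against input DNA. TBR1 regions here are the regions of these lists, and whether TBR1 binds at each was not tested. Every row of both lists was taken. Replicate 1 held 39756 summits in 34988 regions and replicate 2 held 43517 summits in 38336 regions, together 73324 of the 119271 regions in the 4 peak lists of the series. The series has 18 samples, 6 from chromatin immunoprecipitation followed by sequencing (ChIP-seq) and 12 from RNA sequencing of sorted neurons. The ChIP-seq samples came from wild-type cortex of CD1 mice, an outbred strain, at postnatal day 2: 2 with the TBR1 antibody, 2 of input DNA made without antibody, 1 with rabbit IgG and 1 titled IgG that is labelled with a blocking peptide for TBR1 in place of an antibody. All of these samples carry intact Tbr1, so none shows what the antibody recovers without its target. The labels give neither the sex of the mice nor how many were used or pooled, and they do not say that the replicates came from separate animals. The chromatin came from whole cortex, in which only some cell types express TBR1, so the lists do not tell which cells contributed a region.

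TBR1 is a transcription factor of the T-box family, which binds DNA through a conserved domain that recognises a short sequence. In the cortex it is known from early-born glutamatergic neurons, above all the corticothalamic neurons of layer 6 and the subplate, where it represses Fezf2 and Bcl11b, regulators of subcerebral projection neurons. ChIP-seq shears crosslinked chromatin, pulls down fragments with an antibody and sequences them. A region is a stretch in which fragments pile up beyond a background, and a summit is a point of highest pile-up within it. Positions are in the mouse build mm9 and count from 1. A genome and gene annotation of mm9 were not used here, so regions are given by position, with no gene and no sequence.

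TBR1 regions were numerous, short and spread over all autosomes, and the strongest were at the same places in both replicates. Nearly all regions with many fragments in one replicate were found in the other, whereas many regions near the calling threshold were not. The X chromosome held far fewer regions per length than any autosome. With 2 libraries no test between groups could be made, and the values of both replicates stand side by side.

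The values behind these statements have properties that bear on every result. Fold enrichment took 177 distinct values in replicate 1 and 177 in replicate 2. Each was a whole multiple of 1 step, 0.175-fold in replicate 1 and 0.181-fold in replicate 2, to within 0.001 steps. Each enrichment value came with 1 p-value and 1 q-value in its list. The denominator of the enrichment was therefore the same at every summit of a list, and the values rank summits by ChIP signal alone, with no local input signal in them. The caller adds 1 fragment above and below the division, so that a step stands for 1 more fragment over the summit and the common background was 4.72 fragments in replicate 1 and 4.52 in replicate 2. On that reading, summits held 15 to 361 fragments in replicate 1 and 14 to 381 in replicate 2, and the strongest summit of a region had a median of 26 and 25. No source used here states the total number of reads per library, and these fragment numbers are the only depth the lists show.

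The lists called against the negative controls bear on what the word input means here. For replicate 1, all 39756 rows of the list called against the negative control equalled the list against input in every column but the name. Which of the controls this list was called against cannot be told from the values. For replicate 2, 8953 summits lay at the same base in both lists, and their enrichment against the negative control was 0.771 times that against input plus 0.229, with no summit off this line by more than 1.44e-05. The same pile-up was thus scored on another scale, and none of these summits showed a signal of its own from either control. Of the replicate 2 regions called against input, 10605 (27.7%) overlapped a region called against the negative control, and all 10959 regions of that list overlapped the input list. The lowest input enrichment among them was 3.99-fold. The share was 0.156% in the fourth decile of enrichment from below, 29.1% in the seventh, 56.2% in the eighth and 99.5% in the top decile. The highest input enrichment not called against the negative control was 8.33-fold. The list against the negative control thus held mostly stronger regions of the input list, with no sharp cut between them.

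Most TBR1 regions held 1 summit. In replicate 1, 31114 regions had 1 summit, 3239 had 2, 512 had 3 and 123 had 4 or more. In replicate 2 the numbers were 34132, 3490, 566 and 148. Regions with several summits were 11.07% of replicate 1 and 10.97% of replicate 2, and held 21.7% and 21.6% of the summits. The most summits in a region were 19 in replicate 1 and 14 in replicate 2. Both lists thus split their regions in nearly the same proportions, although replicate 2 had more of them.

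Regions were a few nucleosomes long. The median width was 564 bp in both replicates, with a 5th to 95th percentile range of 353 to 1436 bp in replicate 1 and 351 to 1469 bp in replicate 2. No region was shorter than 350 bp, and 1536 (4.39%) of replicate 1 and 1914 (4.99%) of replicate 2 had exactly this width, so the lower end of the distribution is set by a floor. Regions at the floor were weak, with a median enrichment of 3.67-fold and 3.44-fold. Width grew with the number of summits: the median was 533 bp for 1 summit, 1224 bp for 2 and 1849 bp for 3 in replicate 1, and 534, 1241 and 1893 bp in replicate 2. Only 424 and 515 regions were wider than 2000 bp. Among regions with 1 summit, stronger ones were wider, with a Spearman correlation across regions of 0.549 in replicate 1 and 0.566 in replicate 2. Regions of a list share a library and a threshold, and a taller pile-up crosses the same threshold over a longer stretch, so this is a description only. The single summit lay near the centre of its region, at a median of 49.7% of the width in both replicates and between 34.8% and 66.8% for the 5th to 95th percentile of replicate 1.

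**Figure D1:**
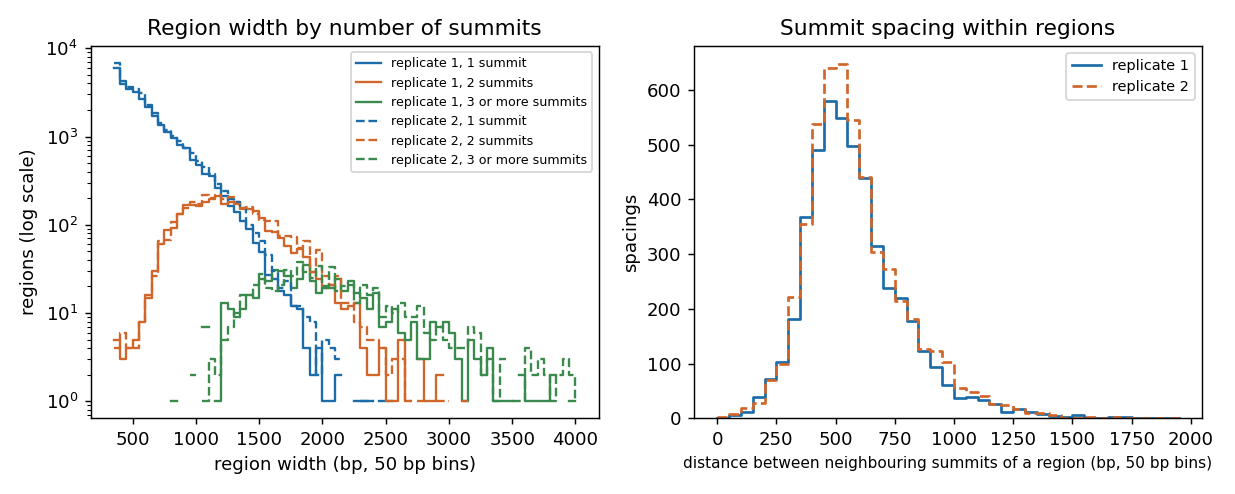
Left, number of regions (log scale) by width in 50 bp bins, for regions with 1, 2 and 3 or more summits, replicate 1 solid and replicate 2 dashed; regions wider than the axis are not drawn. Right, number of distances between neighbouring summits of a region in 50 bp bins up to the end of the axis, which peak near the medians of 548 and 545 bp in both replicates.

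Summits that share a region stood about as far apart as a typical region is wide. The distance between neighbouring summits had a median of 548 bp over 4768 spacings in replicate 1 and 545 bp over 5181 spacings in replicate 2. The interquartile range was 443 to 684 bp and 446 to 693 bp. Close pairs of called summits were rare: 1.20% and 1.04% of spacings were under 200 bp. The smallest spacings were 51 and 35 bp, and the largest were 2008 and 2682 bp. In regions with 2 summits the weaker one reached a median of 81.1% of the enrichment of the stronger in replicate 1 and 80.6% in replicate 2. A summit under the calling threshold is not listed, so weaker summits beside these would not appear. Places too close for the pile-up to separate would appear as 1 summit, and no region was narrower than 350 bp. The spacings therefore describe called summits and do not measure how far apart bound sites are. The plot of summit spacing shows a single hump in both lists, with no series of further peaks.

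Enrichment was modest for most regions and high for few. The strongest summit of a region had a median of 4.72-fold in replicate 1 and 4.71-fold in replicate 2. The 5th and 95th percentiles were 3.15 and 9.62 in replicate 1 and 3.08 and 9.78 in replicate 2. Enrichment began at 2.80-fold and 2.72-fold, at a −log10 q of 2.44 and 2.14, which mark where the lists end rather than where binding ends. At least 10-fold enrichment was reached by 1502 regions (4.29%) and 1704 regions (4.44%), at least 20-fold by 137 and 156, and at least 30-fold by 32 and 35. The curves of the replicates lay close to each other over the whole range down to the few strongest regions.

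**Figure D2:**
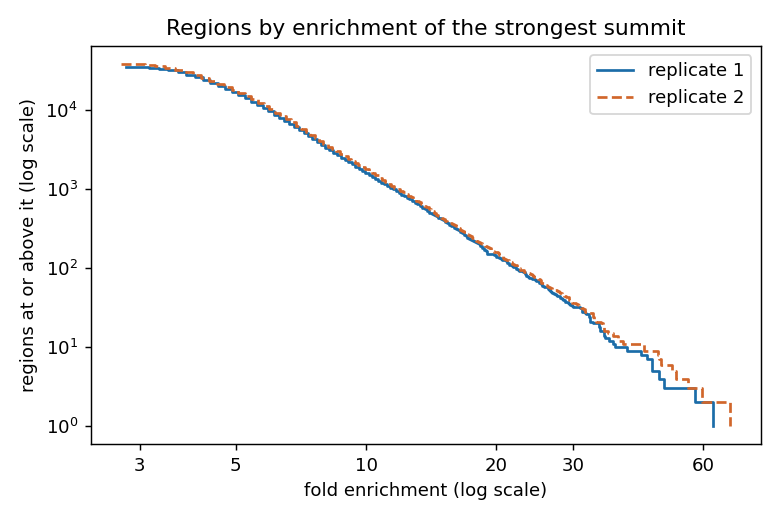
Number of regions (log scale) whose strongest summit reached a given fold enrichment (log scale), replicate 1 solid and replicate 2 dashed. The curves run together from the thresholds at 2.80-fold and 2.72-fold to the strongest regions at 63.3-fold and 69.2-fold.

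The strongest region of both lists was on chromosome 5, at chr5:147378757-147379845 in replicate 1 and chr5:147378706-147379862 in replicate 2. It had 1 summit of 361 fragments (63.3-fold) in replicate 1 and 381 fragments (69.2-fold) in replicate 2, at positions 147379248 and 147379261. The next places by the lower of both enrichments were the regions of the mitochondrial chromosome. They covered chrM:10746-16299 in replicate 1 (57.4-fold) and chrM:10730-16299 in replicate 2 (59.6-fold), and chrM:1-6665 (48.6-fold) and chrM:1-6658 (50.9-fold), leaving the stretch between uncalled. The mitochondrial genome is present in many copies per cell, and with a common denominator its enrichment holds no correction for copy number, so whether TBR1 binds there was not tested. A region with 1 summit on chromosome 2 followed, chr2:117264403-117265320 in replicate 1 with 47.4-fold and chr2:117264489-117265269 in replicate 2 with 48.0-fold, their summits at 117264901 and 117264897. The fifth was chr11:102975893-102979186 with 3 summits and 45.8-fold in replicate 1, and chr11:102976284-102978734 with 2 summits and 51.8-fold in replicate 2. Its strongest summits lay at 102977860 and 102977859, neighbouring bases, although the regions differed in length.

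TBR1 regions were crowded in parts of the genome. The gap from a region to the next had a median of 33751 bp in replicate 1 and 31053 bp in replicate 2, against a mean of 72738 and 66255 bp, so many short gaps stood beside few long ones. Gaps under 1000 bp made up 7.55% and 7.84%, whereas 114 and 93 gaps were longer than 1 Mb. In bins of 1 Mb over chromosomes 1 to 19 and X, the mean was 13.2 and 14.5 regions, and the ratio of the variance to the mean over 2648 bins was 7.35 and 7.67, where independent placement at an even rate gives 1. The densest decile of bins held 25.9% and 25.4% of the regions, and 169 (6.38%) and 163 (6.16%) bins were empty. No autosome had a region starting below 2.9998 Mb in replicate 1 or below 3 Mb in replicate 2, so the first bins of every autosome are among the empty ones. These bins enter the ratio of variance to mean as well. So do the bins of the X chromosome, which had 2.205 and 2.64 regions per Mb. Counts per bin ranked alike in both replicates, with a Spearman correlation of 0.968 across bins, which share the genome's mappable sequence and gene content. Of the 10 densest bins of each list, 7 were common to both.

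The densest megabases lay on chromosomes 10 and 11. The bin chr10:79000001-80000000 held 71 regions in replicate 1, the most in that list, and 70 in replicate 2. Its neighbour chr10:80000001-81000000 held 68 and 74, and chr11:98000001-99000000 held 65 and 74, which were jointly the most in replicate 2. The median enrichment in these bins was 4.53-fold to 5.07-fold, near the median of all regions, so they held many regions and not stronger ones.

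Chained at gaps of 12.5 kb or less, 45.2% of the regions of replicate 1 and 47.4% of replicate 2 fell into groups of 2 or more. There were 348 and 424 groups of at least 5 regions. Crowded regions were not stronger than lone ones: median enrichment was 4.90-fold and 4.89-fold for lone regions, and 4.55-fold and 4.35-fold in groups of at least 5. They were found in the other replicate equally often, at 84.3% for lone regions and 84.2% in groups of at least 5 in replicate 1, and 76.6% for both in replicate 2.

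The largest group was on chromosome 2. It ran over chr2:77707720-77864966 in replicate 1 with 41 regions and 157 summits, and over chr2:77701606-77865039 in replicate 2 with 49 regions and 147 summits. Regions covered 110 kb of its 157 kb in replicate 1 and 110 kb of its 163 kb in replicate 2. It held the widest region of replicate 1, which also had the most summits of that list: chr2:77768187-77780669, 12483 bp wide with 19 summits and 20.5-fold at the strongest. The widest region of replicate 2, also the one with most summits there, was chr11:3086853-3097092, 10240 bp wide with 14 summits and 11.6-fold. It lay in a group at the start of the covered part of chromosome 11, which spanned chr11:3030573-3103203 in replicate 1 with 15 regions and 89 summits, and chr11:3023893-3103354 in replicate 2 with 17 regions and 80 summits. These groups were called over most of their length, unlike the isolated regions elsewhere, and their enrichment too holds no local input signal.

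Autosomes held 11.4 to 18.8 regions per Mb in replicate 1 and 12.2 to 20.3 in replicate 2. Chromosome 11 had the most, at 18.8 and 20.3 per Mb, and chromosome 14 the fewest among autosomes, at 11.4 and 12.2. The X chromosome, with 367 and 440 regions over 166 Mb, had 2.205 and 2.64 per Mb. Its regions were also weaker, at a median of 4.37-fold and 4.17-fold. No region was called on the Y chromosome in either list. The sex of the mice is not given, so the number of X copies per cell is not known here. Along autosomes, density rose from the low-coordinate end, where mouse chromosomes have their centromere, to the far end: the first decile of chromosome length held 8.03 and 8.80 regions per Mb and the last held 17.9 and 19.5. The lowest region start on any autosome was at 2.9998 Mb in replicate 1 and 3 Mb in replicate 2. The first decile therefore also holds a stretch with no regions at all.

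**Figure D3:**
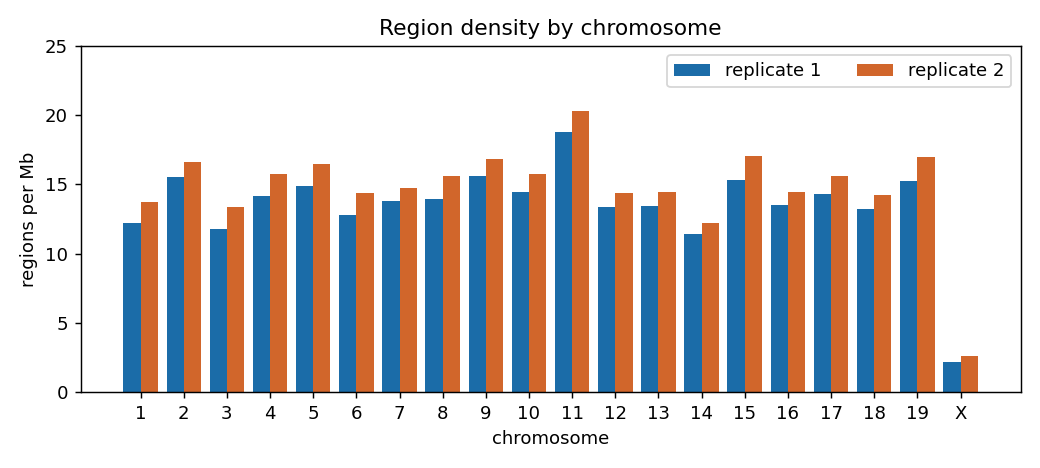
Regions per Mb on each chromosome for replicate 1 (blue) and replicate 2 (orange), with the length taken as the largest coordinate in any peak list. Chromosome 11 stands highest at 18.8 and 20.3, and the X chromosome lowest at 2.205 and 2.64.

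The replicates were then compared region by region. Of replicate 1 regions, 29462 (84.2%) overlapped a replicate 2 region by at least 1 bp, and of replicate 2 regions, 29345 (76.5%) overlapped one of replicate 1. For scale, replicate 2 regions covered 1.01% of the length of chromosomes 1 to 19 and X, and replicate 1 regions covered 0.917%. Regions called in a single list numbered 5526 and 8991. They were weaker and narrower than shared ones: median enrichment was 3.85-fold against 5.07-fold in replicate 1 and 3.805-fold against 5.07-fold in replicate 2, and median width was 403 against 612 bp and 410 against 635 bp. Of them, 8.79% and 7.56% had their strongest summit within 1000 bp of a summit of the other list.

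How often a region was found again followed its fragment number. Of replicate 1 regions with 15 fragments, 49.4% overlapped the other list, 66.0% of those with 20, 95.7% of those with 30 and 100% of those with 40. Of replicate 2 regions with 14 fragments, 32.3% did, 59.1% of those with 20, 94.8% of those with 30 and 100% of those with 40. Among regions of 40 or more fragments, 2 of 5098 in replicate 1 and 4 of 4864 in replicate 2 were in that list alone. Sharing was incomplete well above the threshold too: at 25 fragments it was 85.6% in replicate 1 and 80.7% in replicate 2. Lists cut to equal length give another measure, since the overlapping region must also be among the strongest of the other list. The shares were lower than for regions of 40 or more fragments, which could overlap any region of the other list. Of the 100 strongest replicate 1 regions, 88.0% were among the 100 strongest of replicate 2. The share was 81.0% for 1000, 74.6% for 5000, 75.1% for 10000, 78.9% for 20000 and 80.3% for 30000.

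**Figure D4:**
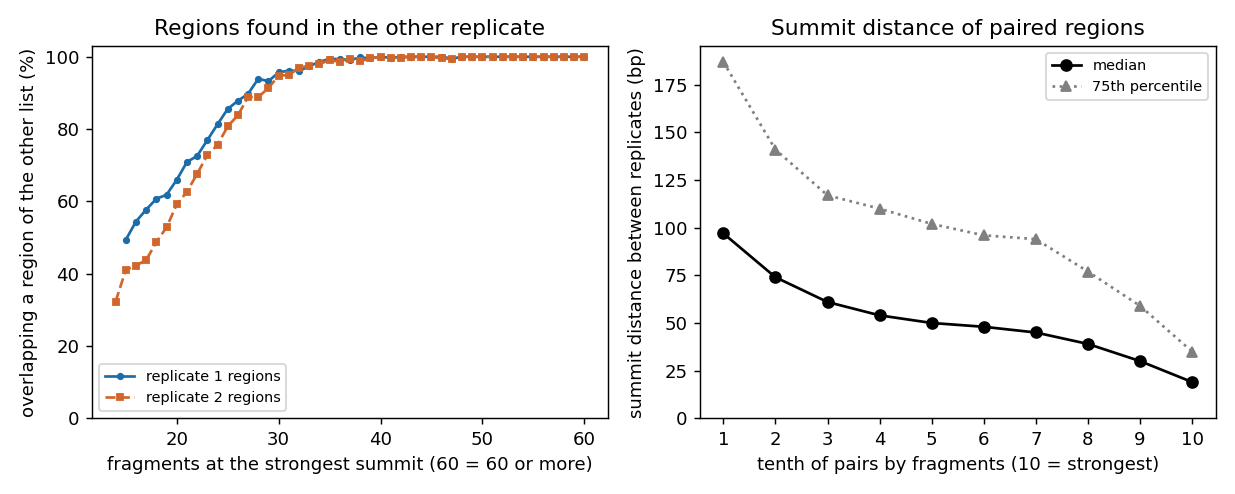
Left, percentage of regions that overlap the other list, by fragments at the strongest summit, for replicate 1 (circles) and replicate 2 (squares): it rises from 49.4% and 32.3% at the thresholds to 100% at 40 fragments. Right, median and 75th percentile of the distance between summits of paired regions by decile of mean fragments: the median falls from 97 bp in the weakest decile to 19 bp in the strongest.

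The strongest regions of a single list were named after their values had been seen. In replicate 1 it was chr4:137463223-137463801, with 47 fragments (8.39-fold) and no replicate 2 summit nearer than 5960 bp. In replicate 2 it was chr15:14266269-14266814, also with 47 fragments (8.70-fold), with the nearest replicate 1 summit 82643 bp away. Both lay far above the thresholds of their lists.

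Sharing differed little between autosomes and was lower on the X chromosome. Autosomes ranged from 81.6% to 86.5% in replicate 1 and from 74.2% to 78.6% in replicate 2. On the X chromosome 79.0% of replicate 1 regions were shared (95% Wilson interval 74.6% to 82.9%) and 64.5% of replicate 2 regions (59.97% to 68.9%). The interval covers counting error only and takes regions as independent. Regions of a list share a library and many lie in groups, so the interval does not measure how the share varies between libraries. Whether the X chromosome differs from autosomes was not tested. The lower enrichment on the X chromosome moves with the lower share, and its part in the sharing was not tested.

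Summits of shared regions lay close together. Of the shared regions, 27139 paired one to one, and these overlapped by a median of 82.2% of the wider region, with 6 pairs equal at both ends. The distance between their strongest summits had a median of 46 bp. It was at most 10 bp in 14.0% of pairs, at most 50 bp in 53.0%, at most 100 bp in 75.03% and at most 200 bp in 89.4%. The median signed offset was 0 bp, so neither list was shifted against the other. Stronger pairs were better placed: the median distance was 97 bp in the weakest decile by mean fragments and 19 bp in the strongest, where 87.2% of pairs were within 50 bp. For 22343 pairs with 1 summit in each list the median was 41 bp, against 102 bp for the other 4796 pairs, in which the lists may rank the summits of a region differently. Taking every summit, shared or not, the nearest one of the other list was a median of 70 bp away from replicate 1 summits and 83 bp from replicate 2 summits.

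The height of shared regions was also alike. Over the 27139 pairs the Spearman correlation of enrichment was 0.766 across regions, and Pearson's r of log2 enrichment was 0.844; pairs share the genome sequence and the caller, and the pairs are not independent replicates. Enrichments were within 1.5-fold of each other in 95.8% of pairs. The log2 ratio of replicate 2 to replicate 1 had a median of 0.015 and an SD over pairs of 0.29. More than 2-fold apart were 21 pairs, 8 higher in replicate 1 and 13 higher in replicate 2. The most different, chosen after its values were seen, was at chr9:56921300-56921802 with 15 fragments in replicate 1 and chr9:56920678-56921352 with 39 in replicate 2, regions that overlap only at their ends.

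**Figure D5:**
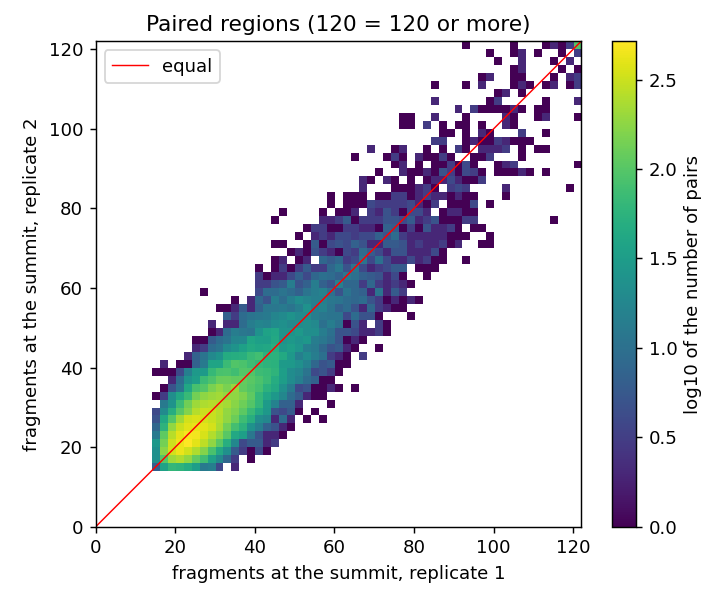
Fragments at the strongest summit of 27139 one-to-one region pairs in replicate 1 (horizontal) and replicate 2 (vertical), with the number of pairs per cell as colour (log10). Pairs lie along the line of equal values, with 95.8% within 1.5-fold in enrichment, and the empty margins at low values are the thresholds of 15 and 14 fragments.

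The spread of these heights was set beside that of counting. Over the 4375 pairs with a mean of at least 40 fragments, outside the mitochondrial chromosome, the chi-square per degree of freedom between the replicates was 0.726, and it was between 0.609 and 0.726 for minimum means of 15 to 120 fragments. Independent counts at fixed places give 1. The values compared are the highest points of regions that both lists called, whose spread need not follow that of such counts, so the ratio does not show whether the libraries differ by more or less than sampling noise. The lists were not copies of each other, since 186 of the 27139 pairs had their strongest summits at the same base. Nothing in the labels says that the libraries came from separate animals, so the agreement of the lists shows how well positions and heights repeat between these libraries, not how they vary between animals.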

How the data were processed

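TBR1 ChIP-seq of cortex from wild-type CD1 mice at postnatal day 2 was described from the peak lists deposited by the authors. Reads were handled with BWA 0.7.16a, Trim Galore 0.4.2 and MACS2 2.1.0 on the build mm9, per the submitters' processing notes. Peaks were called per replicate with no fragment model, per the peak names in the files. Each deposited row gives a region, a summit offset, a score (10 times the −log10 q, cut to a whole number), the −log10 of p and of q, and a fold enrichment, which is a ratio to background. No source used here states the filters or how the control entered. The RNA tables were not used.

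Rows with equal start and end were taken as summits of 1 region, valued by its strongest summit. Regions were called shared at an overlap of 1 bp or more, and summit distances were measured on the same chromosome. Fragments at a summit were the enrichment divided by the list's step, less the 1 that the caller adds. Regions were chained at gaps of 12500 bp or less and counted in bins of 1 Mb by strongest summit. Equal enrichments were kept in genome order when lists were cut. Wilson intervals are at 95%. Python 3.11.15 with numpy 2.4.6, pandas 2.3.3 and scipy 1.17.1 was used, and the functions for overlaps, distances and steps were checked on simulated lists. No test between samples was made. Regions were named by rule: the 5 with the highest lower enrichment of both replicates, the widest, those with most summits, the densest bins and the densest and sparsest chromosomes. Largest groups and single-list regions were named after their values were seen. The members and choices were set with earlier results of these data known. Alternatives were a stricter q, other overlaps, gaps and bins, and each list alone.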

Additional observations from a re-analysis of the deposited data

How the results depend on the processing

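Values here are means of both lists unless stated. With only summits of a −log10 q of at least 5, regions per list moved from 36662 to 30186, median width from 564 to 606 bp, the share of regions with several summits from 11.02% to 9.52%, median summit spacing from 547 to 564 bp, the median gap from 32402 to 41263 bp, the share in chained groups from 46.3% to 38.8%, median enrichment from 4.72-fold to 5.07-fold, the median summit distance from 76.5 to 66 bp, the Spearman correlation from 0.766 to 0.739 and the share of replicate 2 regions also called against the negative control from 27.7% to 22.8%. The share of regions in both replicates was 80.1% against 80.4%, but the lists moved in opposite directions, from 84.2% to 80.6% in replicate 1 and from 76.5% to 79.6% in replicate 2, which nearly closed the gap between them. The mean share was 79.1% when 50% of the shorter region had to overlap and 57.9% when strongest summits had to lie within 100 bp, where the share also called against the negative control was 27.4%. Chaining at 5000 and 50000 bp put 28.9% and 81.9% of regions in groups. Bins of 0.5 and 5 Mb gave a variance to mean ratio of 4.95 and 20.3, against 7.51. Every summit as its own value gave a median enrichment of 4.63-fold, and the strongest summits of paired regions lay 46 bp apart. Leaving out the mitochondrial chromosome, random contigs and regions wider than 5000 bp, chosen after seeing the data, moved the 6 values tried by less than the spread between lists or not at all. With a replicate left out, regions per list ranged from 34988 to 38336, median width stayed at 564 bp, several summits from 10.97% to 11.07%, spacing from 545 to 548 bp, the gap from 31053 to 33751 bp, groups from 45.2% to 47.4%, the variance to mean ratio from 7.35 to 7.67 and enrichment from 4.71-fold to 4.72-fold. The results that compare replicates have no value with a replicate left out. No paired analysis was possible because input and control samples have no files of their own in these lists and no test was made. The planned search for sequence and genes at summits was not run, since no mm9 genome was used. Depth could not be varied with these lists; at 20 fragments, 66.0% and 59.1% of regions were found in the other list.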

Other observations

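Some further groups of TBR1 regions stood out in both lists by their number, and were chosen after their values were seen. On chromosome 13, 25 regions of replicate 1 lay in 42.3 kb at chr13:83846981-83889315 and 27 of replicate 2 in 43.0 kb at chr13:83846982-83889961. These regions were weak, with a median of 3.85-fold and 4.17-fold. Of them, 92.0% and 92.6% were found in the other list, against 84.2% and 76.5% of all regions. Regions covered 19.034 kb of this stretch in replicate 1 and 18.277 kb in replicate 2, so a 1 bp overlap is easily met there. The higher shares therefore do not show that these regions repeat better than others. On the X chromosome, which was otherwise sparse, 15 regions with 26 summits lay in 27.3 kb at chrX:166410316-166437606 in replicate 1, and all 15 were shared. In replicate 2, chained at 5000 bp, the same stretch held 14 regions with 25 summits at chrX:166408484-166437649, of which 85.7% were shared. Regions covered 20.6 kb of it in replicate 1 and 21.2 kb in replicate 2, so a 1 bp overlap says little here about single regions. The stretch lay at the high-coordinate end of the part of the X chromosome that the lists cover. By contrast, 18 regions of replicate 2 in 51.8 kb at chr3:88008548-88060321, with a median of 3.99-fold, were shared at 44.4%.

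Contigs labelled random in mm9 held 32 regions in replicate 1 and 36 in replicate 2.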
